A study of Mus musculus with 7 samples.

Results

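The genes described here are the ligands of the tumor necrosis factor (TNF) superfamily and their receptors. They were chosen by name, as protein-coding genes with a numbered Tnfsf or Tnfrsf symbol plus Tnf, Lta, Ltb, Ltbr, Fas, Fasl, Cd40, Cd40lg, Cd27, Cd70, Eda, Edar, Eda2r, Ngfr and Relt. The rule found 46 members, 18 ligands and 28 receptors, among the 56065 genes of the table, and 45 of them had the 10 counts in total that were needed for testing. Only Cd70, the ligand of the costimulatory receptor Cd27, was left out, with 0 counts in every library. Expression was measured by bulk RNA-Seq of the whole extrahepatic bile duct (EHBD) of adult wild-type C57BL/6J mice 48 hours after surgery. In 3 sham libraries (1 female, 2 male) only a laparotomy was done, and in 4 bile duct ligation (BDL) libraries (2 female, 2 male) bile flow was also blocked by a ligature on the lower duct, on its duodenal side. The labels do not tie libraries to animals. The study counts its samples of this time point as mice, so each library was taken as 1 mouse.

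TNF superfamily ligands are mostly trimeric proteins of the cell surface, some of which are cut and released. Their receptors either carry a death domain, which can assemble a caspase or necroptosis complex, or bind TRAF adaptors directly and switch on NF-kB and the MAP kinases. Decoy receptors bind a ligand without passing on a death signal. In bile ducts the family is known for TRAIL-induced and Fas-induced death of cholangiocytes and for the reaction to TWEAK in which ductules multiply.

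Library totals ran from 48882420 to 61291821 counts. The duct's own cells were present in every library, with 6 cholangiocyte markers summing to between 1610 and 2130 counts per 1e6 (CPM) in sham and between 2940 and 4840 CPM in BDL. RNA of neighboring organs was present in unequal amounts. Pancreatic acinar markers made up 26%, 15.4% and 56.8% of sham replicates 1 to 3 and 0.336%, 12.4%, 19.3% and 0.0112% of BDL replicates 1 to 4. Hepatocyte markers made up 1.64% and 5.72% of BDL replicates 1 and 4 and no more than 0.283% of any other library. Adipocyte markers summed to 118 to 623 CPM in sham and 2.77 to 76.1 CPM in BDL, and 3 of 5 were called lower. The part of adipocyte RNA in the calls was not tested. Leaving the listed acinar marker genes out before scaling gave the same counts of members called. Other RNA of the pancreas stayed in that fit, so it cannot show whether the unequal shares affect the calls.

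Members were called in both directions after BDL. Of the 45 members tested, 6 were higher after BDL, 12 were lower and 27 did not pass (edgeR, adjusted p under 0.05). Over all 25209 genes tested, 11.8% were called higher and 11.0% lower, so the higher calls among members were near the share of all genes. The median log2 fold change was -0.01 over all genes against -0.11 for the members. Of the 17 ligands tested, 1 was higher, 6 were lower and 10 did not pass, with a median of -1.36. Among the 28 receptors, 5 were higher and 6 lower, with a median of 0.0. In 9 tested members every BDL library lay above every sham library, and in 14 every BDL library lay below, where 18.7% and 18.0% of all tested genes did so. These include the 18 called members and 5 that did not pass.

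**Figure D1:**
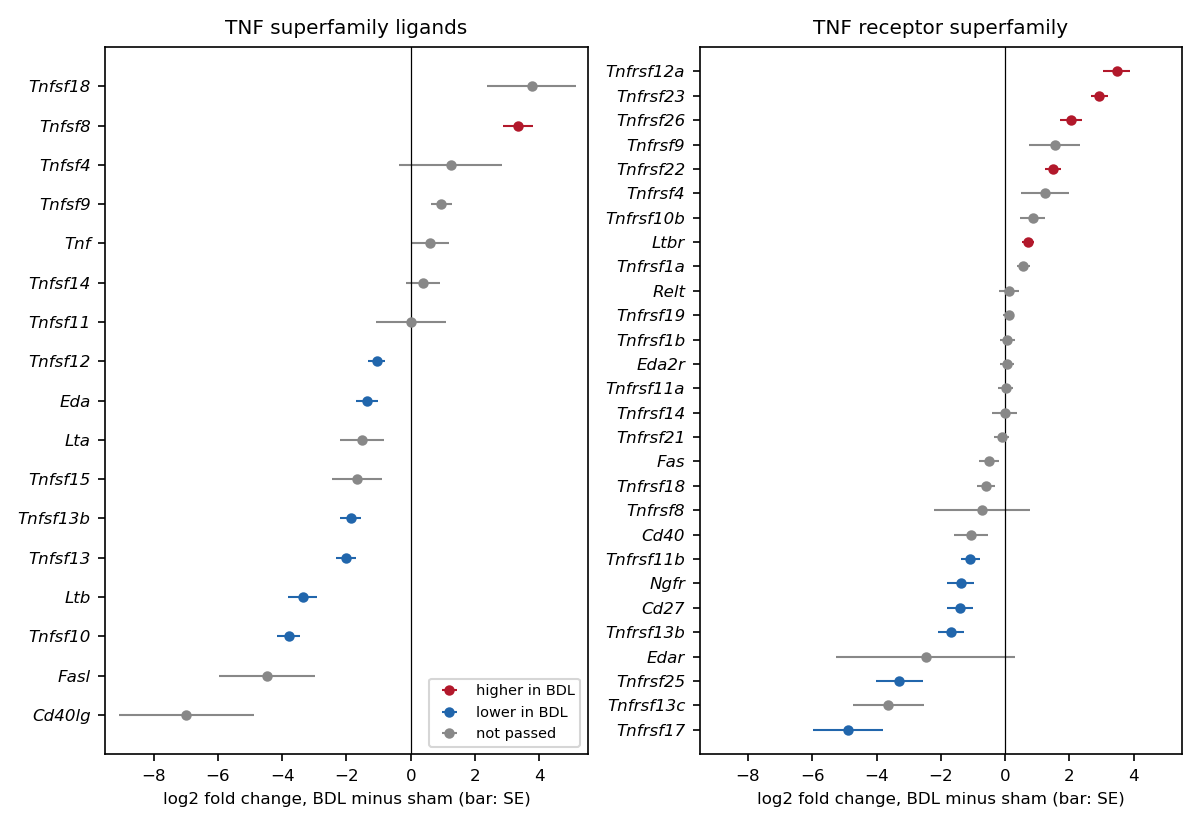
Log2 fold change of the 45 tested members, BDL minus sham, with ligands on the left and receptors on the right. Points are the edgeR estimates, bars are 1 standard error, and color gives the call at an adjusted p of 0.05. The 5 receptors called higher lie between 0.71 and 3.47, and Tnfsf8 is the only ligand called higher, at 3.34.

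Expressed per kilobase of exon, so that genes can be compared, the most abundant members in sham ducts were receptors. Tnfrsf1a, the death-domain receptor for TNF found on most cells, stood at 33.5 ± 7.24 CPM per kb (SD, n = 3). Ltbr, the lymphotoxin beta receptor, stood at 26.2 ± 3.18 CPM per kb and Tnfrsf21, the death-domain receptor DR6, at 17.0 ± 4.52 CPM per kb. The ranges of Tnfrsf1a and Ltbr overlapped, and Tnfrsf21 lay below both. After BDL the order was led by Tnfrsf12a, at 61.0 ± 29.9 CPM per kb (SD, n = 4), then Tnfrsf1a at 49.7 ± 4.65, Ltbr at 42.4 ± 8.32 and Tnfrsf21 at 15.7 ± 3.43. Tnfrsf12a, Tnfrsf1a and Ltbr overlapped between neighbors in that order, and Tnfrsf21 again lay below them. Dividing by the longest transcript instead kept the order of these genes in each group. At the other end, 14 tested members averaged under 1 CPM in both groups.

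**Figure D2:**
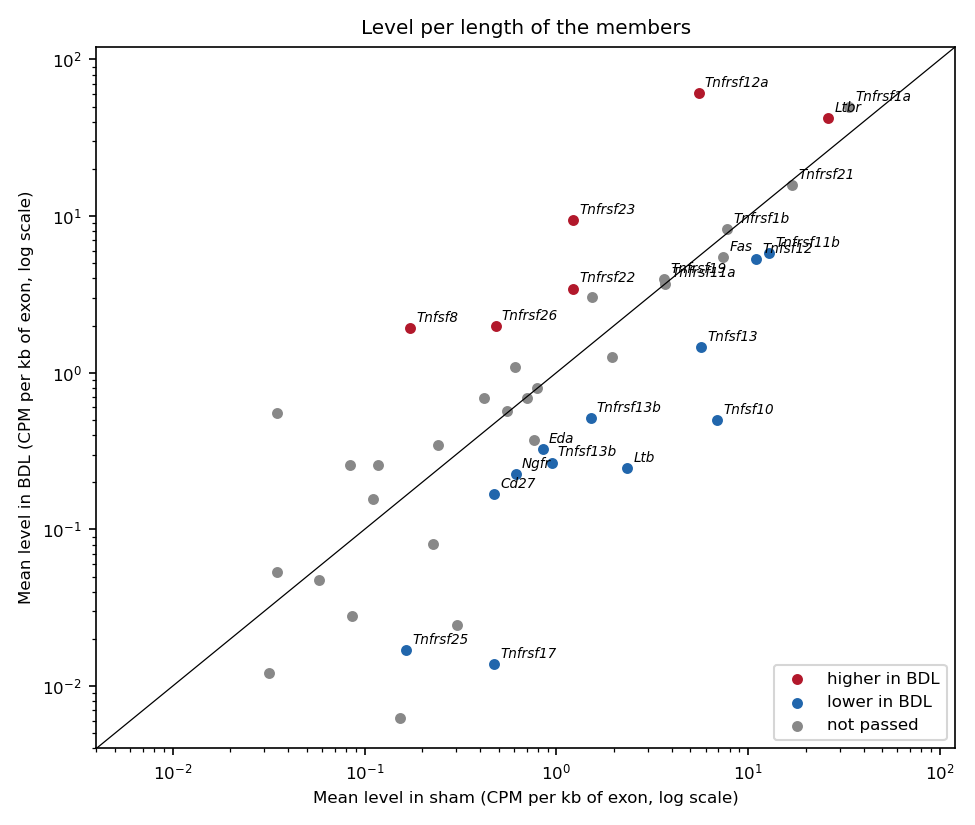
Mean level of the members in sham (x axis) and BDL (y axis), both in CPM per kb of exon on log scales, with the line of equal level. Called members and those above 3 CPM per kb in sham are named; Cd40lg and Cd70, with no BDL counts, are not drawn. Tnfrsf12a moves from 5.52 to 61.0 and Tnfsf10 from 6.92 to 0.50, while Tnfrsf1b and Tnfrsf21 lie near the line.

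Among the TNF and lymphotoxin genes, Ltb fell and Ltbr rose, while Tnf, Lta and both TNF receptors did not pass. Tnf, the inflammatory cytokine itself, was at 1.10, 0.746 and 0.215 CPM in the 3 sham libraries and at 0.858, 0.843, 0.675 and 2.13 CPM in the 4 BDL libraries. The groups overlapped, with BDL replicate 4 above all the others, and the log2 fold change was 0.61 (SE 0.59, adjusted p = 0.488). Its neighbor Lta, which encodes lymphotoxin alpha, was at 0.366, 0.497 and 0.241 CPM in sham and 0.0903, 0.275, 0.0823 and 0.0703 CPM in BDL, for a log2 change of -1.51 that did not pass (SE 0.68, adjusted p = 0.153). Ltb encodes the membrane partner that forms the ligand of Ltbr together with lymphotoxin alpha. It was at 4.12, 4.27 and 2.47 CPM in sham and at 0.406, 0.165, 0.395 and 0.562 CPM in BDL. Ltb shares 22.9% of its exon bases with Gm65873 on the opposite strand, for which no counts were given. Every BDL library was far below every sham library, and Ltb fell by 3.36 on the log2 scale (SE 0.45, adjusted p = 0.00298). Its receptor went the other way. Ltbr, which activates the noncanonical NF-kB route, was at 65.6, 68.3 and 54.0 CPM in sham and 121, 116, 81.7 and 87.0 CPM in BDL. No libraries overlapped, BDL replicates 1 and 2 were the highest, and the log2 fold change was 0.71 (SE 0.18, adjusted p = 0.0286). The Ltbr call was lost without sham replicate 2 (adjusted p = 0.0752), sham replicate 3 (0.0843), BDL replicate 1 (0.0914) or BDL replicate 2 (0.0856). Tnfsf14, known as LIGHT, the other ligand of Ltbr, had a log2 fold change of 0.39 (SE 0.53) at means of 0.459 CPM in sham and 0.650 CPM in BDL, and its second receptor Tnfrsf14 one of -0.01 (SE 0.39).

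Neither TNF receptor passed. Tnfrsf1a was at 103, 129 and 84.1 CPM in sham and 146, 153, 178 and 149 CPM in BDL. The groups did not overlap, the log2 fold change was 0.56 (SE 0.20, adjusted p = 0.0816), and it passed in DESeq2 (adjusted p = 0.0287) and in edgeR without sham replicate 2 (adjusted p = 0.0397). Tnfrsf1b, the receptor without a death domain that is common on leukocytes and endothelium, was at 50.2, 38.9 and 25.8 CPM in sham and 35.8, 42.1, 35.1 and 51.2 CPM in BDL. Its groups overlapped almost fully, with a log2 fold change of 0.07 (with an SE of 0.22, adjusted p = 0.848).

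In the TRAIL system the ligand fell and a cluster of receptor genes rose. Tnfsf10, which encodes the death ligand TRAIL, on chromosome 3 (GRCm39, 27371033 to 27396576), was at 51.4, 32.9 and 28.1 CPM in sham and at 2.68, 2.99, 3.64 and 1.51 CPM in BDL. The lowest sham library was above the highest BDL library by a wide margin, and Tnfsf10 fell by 3.80 on the log2 scale (SE 0.35, adjusted p = 0.000794). Tnfrsf23 and Tnfrsf22, decoy TRAIL receptors that the mouse carries without an intracellular death domain, moved the opposite way. Tnfrsf23 was at 7.11, 5.92 and 3.43 CPM in sham and 39.1, 44.4, 47.8 and 39.3 CPM in BDL, for a log2 change of 2.93 (SE 0.26, adjusted p = 0.000733). Tnfrsf22 was at 8.26, 6.14 and 5.96 CPM in sham and 18.8, 24.6, 17.7 and 15.2 CPM in BDL, for a log2 change of 1.49 (SE 0.24, adjusted p = 0.00585). In both genes every BDL library was above every sham library. Tnfrsf26, the third receptor gene of the locus, rose from 1.35, 2.18 and 1.13 CPM to 5.16, 6.98, 7.49 and 6.01 CPM, for a log2 change of 2.05 (SE 0.35, adjusted p = 0.00692). Summed over the 3 genes, sham libraries held 16.7, 14.2 and 10.5 CPM and BDL libraries 63.1, 76, 72.9 and 60.5 CPM. The lowest BDL sum was above the highest sham sum. These 4 calls held under all 17 alternatives.

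Tnfrsf10b, the only mouse TRAIL receptor with a death domain, did not pass. It was at 5.53, 2.10 and 2.79 CPM in sham and 5.68, 8.34, 5.18 and 5.36 CPM in BDL. Sham replicate 1 lay within the BDL range, and the log2 fold change of 0.85 (with an SE of 0.39, adjusted p = 0.161) passed only without that library (adjusted p = 0.0367).

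**Figure D3:**
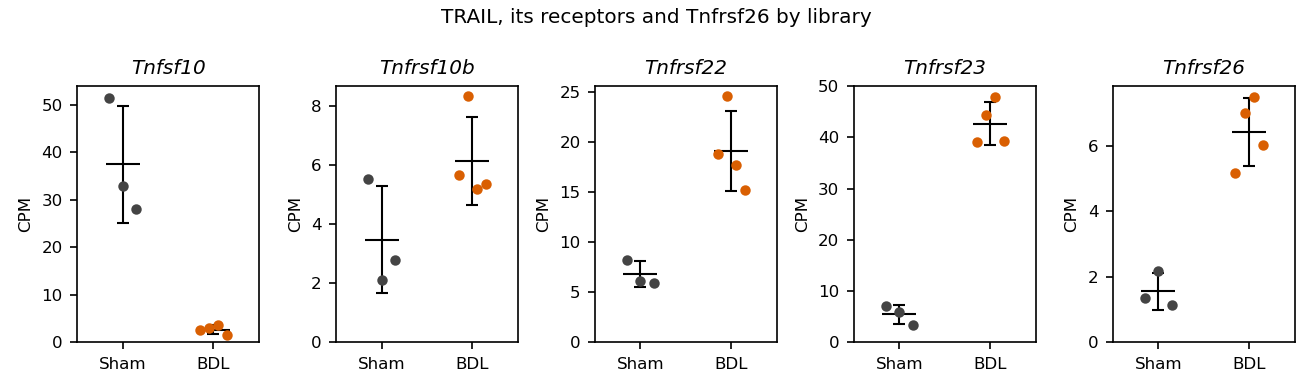
CPM of Tnfsf10 and 4 receptor genes by library, 3 sham and 4 BDL, with the mean and SD as bars; each panel has its own y axis from 0. Tnfsf10 drops from a mean of 37.5 to 2.70 CPM while Tnfrsf23 goes from 5.49 to 42.6 CPM, and Tnfrsf10b has 1 sham library among the BDL values.

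Tnfrsf26, Tnfrsf22 and Tnfrsf23 lie side by side on the minus strand of chromosome 7 within 78.2 kb (GRCm39, 143161396 to 143239611). They are close paralogs, so reads could have been divided between them, and the sum given above does not depend on that division. The genes next to them did not share 1 direction. Cars1, a transfer RNA synthetase gene on one side, was higher by 0.70 (SE 0.19, adjusted p = 0.0393), and Osbpl5, a lipid transfer gene on the other side, had a log2 fold change of -0.56 that did not pass (SE 0.19, adjusted p = 0.0706). Across the genome, 22 of the 46 members lie in 9 clusters of members no more than 100 kb apart. In 2 of these clusters every member was called in 1 direction, the receptor genes on chromosome 7 and the pair Tnfsf12 and Tnfsf13 on chromosome 11. In 4 clusters no member was called, and in the other 3 some members were called and some were not or were called in the opposite direction. One of these is the 10.9 kb with Ltb, Tnf and Lta on chromosome 17, where Ltb alone passed, and another the 130.0 kb on chromosome 6 that hold Cd27, which fell, Ltbr, which rose, and Tnfrsf1a.

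Fas and its ligand, the other classical death pair, were not called. Fas was at 15.0, 22.0 and 14.5 CPM in sham and 12.8, 7.72, 12.1 and 18.0 CPM in BDL, with overlapping groups and a log2 fold change of -0.51 (with an SE of 0.31, adjusted p = 0.279). Fasl, carried by cytotoxic T and NK cells, was at 0.308, 0.591 and 0 CPM in sham and 0.0301, 0.0183, 0 and 0 CPM in BDL. That is 54 counts against 3, a ratio of 28 after scaling with an exact interval of 9.08 to 140 for counting error only, and the adjusted p was 0.0713. It passed without sham replicate 3, the sham library at 0 (adjusted p = 0.0223), with no filter on low counts (0.0202) and in DESeq2 (0.0334). Tnfrsf25, which encodes DR3, a death-domain receptor of T cells, was at 0.347, 0.777 and 0.349 CPM in sham and at 0.0301, 0.0367, 0.0658 and 0.0703 CPM in BDL. It fell by 3.30 on the log2 scale (SE 0.73, adjusted p = 0.0176), and the call was lost without BDL replicate 1 (adjusted p = 0.08) or 2 (0.0779). Its exons share 17.1% of their bases with Espn on the opposite strand, which also fell by 3.30 (SE 0.34, adjusted p = 0.00113), and the libraries do not record strand. Tnfsf15, the ligand of Tnfrsf25, had a log2 fold change of -1.67 that did not pass (SE 0.77, adjusted p = 0.162).

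TWEAK and its receptor Fn14 also moved apart. Tnfrsf12a, which encodes Fn14, a small receptor known to appear on injured epithelium, was at 10.4, 10.8 and 11.3 CPM in sham and 180, 141, 40.6 and 118 CPM in BDL. The sham libraries were nearly identical, and BDL replicate 3 was the lowest of its group yet still well above them. The log2 fold change of 3.47 (with an SE of 0.42, adjusted p = 0.00205) was the largest increase among the called members. Every exon base of Tnfrsf12a in the annotation, on chromosome 17 (GRCm39, 23894416 to 23896468), is also covered by Hcfc1r1 on the opposite strand, which was at 30.3 ± 6.60 CPM in sham and 21.9 ± 1.95 CPM in BDL (SD, n = 3 and 4) and did not pass (adjusted p = 0.144). Tnfsf12, which encodes TWEAK, was at 17.6, 26.5 and 17.8 CPM in sham and 9.59, 8.78, 13.3 and 8.05 CPM in BDL. The groups did not overlap, and it fell by 1.06 on the log2 scale (SE 0.26, adjusted p = 0.0268). The Tnfsf12 call was lost without sham replicate 1 (adjusted p = 0.0528), 2 (0.0715) or 3 (0.0504) and without BDL replicate 1 (0.0905) or 2 (0.0911).

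In the RANK system only the soluble decoy was called. Tnfrsf11b encodes osteoprotegerin, which is secreted and binds RANK ligand and TRAIL. It was at 28.8, 50.7 and 37.0 CPM in sham and 25.6, 11.0, 15.9 and 17.1 CPM in BDL. The groups stood close, with BDL replicate 1 just under sham replicate 1, and Tnfrsf11b fell by 1.08 on the log2 scale (SE 0.30, adjusted p = 0.0402). The call was lost without sham replicate 1 (adjusted p = 0.0897), 2 (0.112) or 3 (0.0847) or BDL replicate 3 (0.0686). Tnfrsf11a, which encodes RANK, was at 27.8 ± 4.45 CPM in sham and 28.0 ± 10.5 CPM in BDL (SD, n = 3 and 4), and its ligand Tnfsf11 was at 0.250 and 0.350 CPM. The log2 fold change of each was 0.01, and neither passed.

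**Figure D4:**
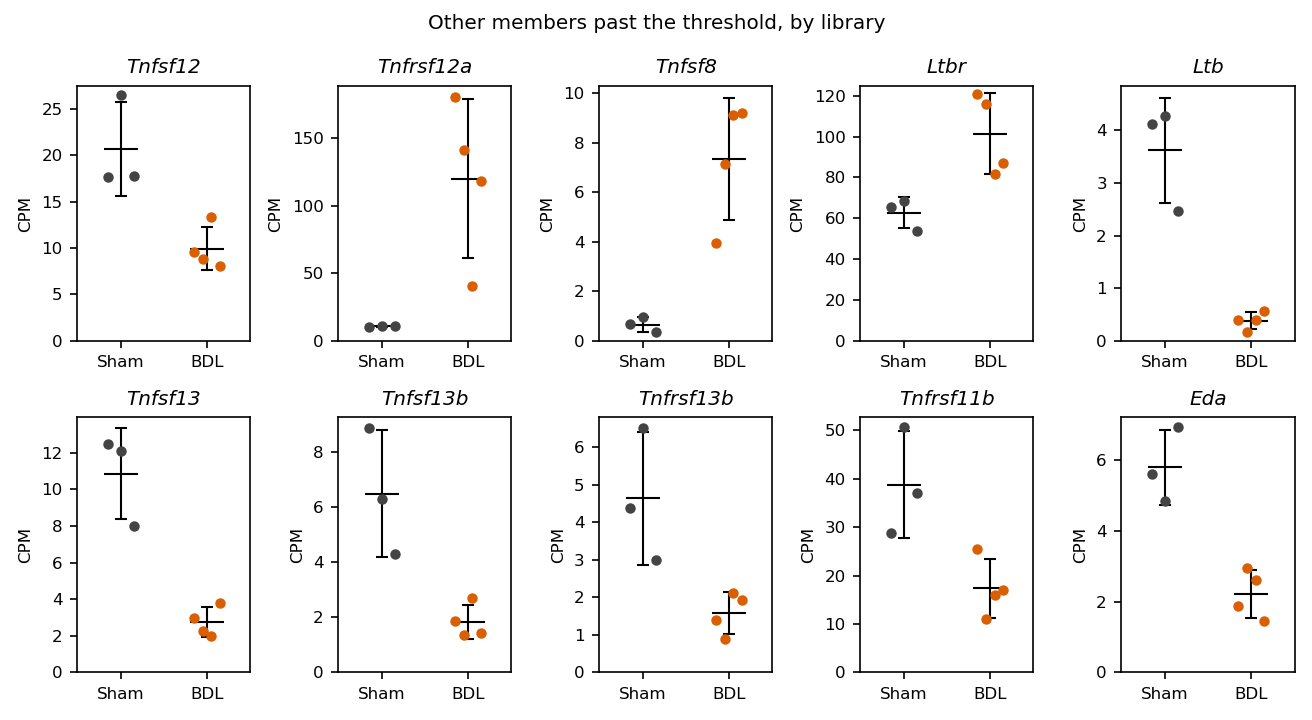
CPM by library of 10 further members called in edgeR, with 3 sham and 4 BDL points per panel and the mean and SD as bars; each y axis starts at 0. Tnfrsf12a, Tnfsf8 and Ltbr are above all sham values in every BDL library, and the other 7 are below.

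Among the costimulatory members, 1 ligand rose. Tnfsf8, the CD30 ligand, on chromosome 4 (GRCm39, 63749542 to 63779592), was at 0.674, 0.948 and 0.349 CPM in sham and 3.94, 7.15, 9.13 and 9.21 CPM in BDL. Even the lowest BDL library, replicate 1, was above every sham library, and the log2 fold change was 3.34 (SE 0.47, adjusted p = 0.0035). Its receptor Tnfrsf8 (CD30) was low in both groups, with means of 0.201 and 0.166 CPM. Tnfsf18, the GITR ligand, was at 0, 0.218 and 0 CPM in sham and 0.828, 0.642, 0.773 and 2.35 CPM in BDL. Its groups did not overlap, but the log2 fold change of 3.76 did not pass (SE 1.39, adjusted p = 0.0937). It passed without sham replicate 2, the sham library with counts (adjusted p = 0.0176), with no filter (0.00985), in limma-voom (0.0303) and in DESeq2 (0.00246). Tnfsf9, the 4-1BB ligand, was at 2.27, 2.53 and 1.29 CPM in sham and 3.46, 3.96, 4.36 and 4.46 CPM in BDL, again without overlap, with a log2 fold change of 0.95 (with an SE of 0.32, adjusted p = 0.0723, and 0.0146 in DESeq2). Tnfsf4, the OX40 ligand, had 10 counts in sham and 24 in BDL.

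The costimulatory receptors, most of which sit on lymphocytes, gave 1 call of 6. Of all tested genes, 11.8% were called higher and 11.0% lower. Cd27 was at 0.751, 1.23 and 1.34 CPM in sham and 0.406, 0.422, 0.329 and 0.404 CPM in BDL, and fell by 1.40 on the log2 scale (SE 0.41, adjusted p = 0.046). The BDL libraries were close together and below all sham libraries. Its call was lost when any library but BDL replicate 4 was left out (adjusted p from 0.0702 without BDL replicate 3 to 0.164 without BDL replicate 1) and with no filter (0.0904). Cd40, Tnfrsf18 (GITR), Tnfrsf4 (OX40), Tnfrsf8 and Tnfrsf9 (4-1BB) had log2 fold changes of -1.05, -0.60, 1.23, -0.73 and 1.54, and none passed. Cd40lg, the helper T cell ligand of Cd40, had 46 counts over sham replicates 1 and 2 and 0 in sham replicate 3 and all BDL libraries. Against a floor of 3 counts over the BDL group it was at least 23.8-fold lower (counting error allows a ratio down to 18.6), with an adjusted p of 0.0864 that fell under the threshold with no filter (0.00695) and in DESeq2 (0.0281).

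The 2 ligands that sustain B cells and plasma cells both fell, with 2 of their 3 receptors, where 11.0% of all tested genes were called lower. Tnfsf13, which encodes APRIL, was at 12.5, 12.1 and 7.99 CPM in sham and 2.97, 2.25, 2.01 and 3.81 CPM in BDL, and fell by 2.01 on the log2 scale (SE 0.31, adjusted p = 0.00481). Tnfsf13b, which encodes BAFF, was at 8.86, 6.29 and 4.29 CPM in sham and 1.85, 1.37, 2.68 and 1.42 CPM in BDL, and fell by 1.87 (SE 0.33, adjusted p = 0.00814). In both genes the highest BDL library was below the lowest sham library, although the BAFF call was lost without sham replicate 1 (adjusted p = 0.0583). Tnfrsf13b, the receptor TACI, was at 4.39, 6.51 and 3.0 CPM in sham and 1.40, 0.898, 2.12 and 1.92 CPM in BDL. It fell by 1.69 (SE 0.41, adjusted p = 0.0252), a call lost without sham replicate 2 (adjusted p = 0.0528) or BDL replicate 1 (0.083) or 2 (0.085). Tnfrsf17, the plasma cell receptor BCMA, was at 0.250, 0.948 and 0.134 CPM in sham and 0.0151, 0.0367, 0 and 0 CPM in BDL. That is 79 counts against 3, a ratio of 40.9 (exact interval 13.5 to 203, counting error only), and the adjusted p was 0.0181. The BCMA call was lost without sham replicate 1 (adjusted p = 0.108) or 2 (0.0931) or BDL replicate 1 (0.0706). Tnfrsf13c, the BAFF receptor, had means of 0.621 and 0.0504 CPM, no overlap between groups, and an adjusted p of 0.0516. Among its alternatives, 7 took it under the threshold, with adjusted p values from 0.00621 in DESeq2 to 0.0486 with upper quartile scaling, leaving out BDL replicate 1 among them (0.04).

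Tnfsf13 and Tnfsf12 are neighbors on chromosome 11 and share 65.7% and 52.4% of their exon bases with a read-through gene, Tnfsfm13, on the same strand. Tnfsfm13 fell by 1.30 (SE 0.36, adjusted p = 0.0388), at 9.50 ± 3.91 CPM in sham and 3.99 ± 0.942 CPM in BDL (SD, n = 3 and 4), so the direction was shared by all 3 rows among which such reads could be divided. An antisense row, Tnfsf13os, which covers 13.4% of the Tnfsf13 exon bases, also fell, by 1.37 (SE 0.31, adjusted p = 0.0184).

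Markers of several immune cell types also differed between the groups. All 7 tested markers of B and plasma cells were lower after BDL, and their summed level was 85.5 to 435 CPM in sham and 3.90 to 13.9 CPM in BDL, with Pax5 at 0 in every BDL library. Of 12 T and NK cell markers, 11 were lower, with sums of 13.7 to 32 CPM against 0.807 to 3.37 CPM and with Ncr1 and Cd5 at 0 in BDL. Dendritic cell markers were lower for 5 of 7, with sums of 29.8 to 42.2 CPM against 7.50 to 10.4 CPM, and monocyte and macrophage markers for 4 of 10, with 1 higher and sums of 818 to 1920 CPM against 543 to 738 CPM. All 6 mast cell markers were lower, with sums of 55.2 to 121 CPM in sham and 4.64 to 11.4 CPM in BDL. Neutrophil markers went up for 6 of 8 tested, from sums of 7.49 to 8.97 CPM to sums of 35.7 to 155 CPM, the highest in BDL replicate 4. In whole tissue, fewer cells of a type and less RNA per cell cannot be told apart. The part of these markers in the changes of Ltb, Tnfsf8, Tnfsf10, Tnfsf12, Tnfsf13, Tnfsf13b, Tnfrsf13b, Tnfrsf17, Cd27 and Tnfrsf25 was not tested.

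The remaining members include several that act in development. Eda, the ectodysplasin ligand of skin appendages, was at 5.60, 4.83 and 6.92 CPM in sham and 1.87, 2.95, 2.60 and 1.46 CPM in BDL. It fell by 1.36 (SE 0.33, adjusted p = 0.0256), and the call was lost without sham replicate 1 (adjusted p = 0.114) or 3 (0.0789) or BDL replicate 1 (0.0952). Its receptors Edar and Eda2r did not pass, at mean levels of 0.118 and 0.0453 CPM and of 5.92 and 5.97 CPM in sham and BDL. Ngfr, the p75 neurotrophin receptor of Schwann cells and some stromal cells, was at 1.68, 2.58 and 2.09 CPM in sham and 0.858, 0.733, 1.05 and 0.457 CPM in BDL. Ngfr fell by 1.39 (SE 0.41, adjusted p = 0.0473), with no overlap. It lost its call when any library but BDL replicate 3 was left out (adjusted p from 0.0583 without BDL replicate 4 to 0.148 without BDL replicate 2). Relt, Tnfrsf19 and Tnfrsf21 had log2 fold changes of 0.11, 0.11 and -0.11, and none passed.

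Sequence before the start sites was searched in RefSeq's promoter table (build GRCm38.p6), which holds 36 of the 46 members. The 250 bases before each start were searched on both strands for 3 motifs. The NF-kB motif was GGG, 2 bases of any kind, TT, any base, CC; the interferon-response motif was GAAA, 2 bases of any kind, GAAA; and the AP-1 motif was TGANTCA, with N for any base. They were found in 4, 4 and 6 of 40 member promoters, where 4.11%, 2.98% and 6.75% of all 32851 promoters held them. At least 1 of the 3 was held by 13.2% of all promoters. Counted by gene, it was held by 6 of the 10 called lower that have an entry and by 0 of the 4 called higher. Fas, Tnfrsf14, Tnfrsf1b, Tnfrsf8, Tnfrsf9 and Tnfsf14, which did not pass, also held at least 1. Some genes have more than 1 promoter entry, and these counts were not tested. The matches below are 30 bases long, with the motif in capitals, written in the direction of the gene, so that a motif on the opposite strand appears as its reverse complement. The 250-base sequence that holds each match was found once on its chromosome in GRCm39, which gave the position. The match in Ltb lies inside the annotated gene, those of Tnfrsf13b and Tnfrsf25 lie before the annotated start, and those of Tnfrsf17, Tnfsf13b and Tnfsf13 lie inside the gene.
Ltb, NF-kB motif, chr17:35413386-35413415, plus strand: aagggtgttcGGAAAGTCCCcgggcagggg
Tnfrsf13b, NF-kB motif, chr11:61017510-61017539, plus strand: caggtcgaagGGGAAAACCCaggaagtgtg
Tnfrsf25, NF-kB motif, chr4:152200163-152200192, plus strand: tgagacccagGGAAAAGCCCctggctctgg
Tnfrsf17, interferon-response motif, chr16:11131562-11131591, plus strand: aaataggtggTTTCTGTTTCaggaatagtt
Tnfsf13b, interferon-response motif, chr8:10056603-10056632, plus strand: atcttacaaaaactGAAAGTGAAAtgcgga
Tnfsf13b, AP-1 motif, chr8:10056494-10056523, plus strand: gcttgtctggagTGAGTCAgtctgaacccc
Tnfsf13, AP-1 motif, chr11:69576496-69576525, minus strand: ctcattcatgccTGAGTCAgagtctaccac
The AP-1 and interferon-response matches of Tnfsf13b do not overlap each other. A match of letters is not a binding site, and a gene without a match may still be bound by the factor.

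Around the receptors, 48 genes of TNF signaling and ligand release were examined. Of these, 9 were higher, 4 were lower and 35 did not pass, where 11.8% of all tested genes were called higher and 11.0% lower. The median of the 48 genes was 0.15 on the log2 scale. The adaptors and death complex gave 4 higher and 3 lower of 18. Ripk3, the kinase that starts necroptosis, was at 9.57, 9.32 and 9.28 CPM in sham and 39.8, 49.7, 45.8 and 47.0 CPM in BDL. It was tight in both groups and far from overlap, with a log2 fold change of 2.27 (with an SE of 0.15, adjusted p = 0.000315). Mlkl, the pore-forming protein that Ripk3 phosphorylates, rose from 7.24 ± 1.09 to 17.6 ± 4.77 CPM (SD, n = 3 and 4), for a log2 change of 1.20 (SE 0.23, adjusted p = 0.0103, and 0.0516 without sham replicate 1). Casp8, the protease that starts death-receptor apoptosis and restrains necroptosis, rose from 42.4 ± 5.48 to 72.3 ± 11.2 CPM. Its log2 fold change was 0.77 (SE 0.18, adjusted p = 0.0231), and its call was lost without any 1 sham library (adjusted p = 0.055, 0.0557 and 0.0813) or BDL replicate 1 (0.0655) or 2 (0.0785). Traf4, a TRAF family adaptor, was higher by 1.26 (SE 0.25, adjusted p = 0.012, and 0.0604 without sham replicate 3), with BDL replicate 1 at 97.2 CPM and BDL replicate 3 at 33.8 CPM, against 24.9 to 29.9 CPM in sham.

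Traf1, Traf5 and Rnf31 fell. Traf1, an NF-kB target and adaptor of activated lymphocytes, was at 5.49, 4.32 and 3.92 CPM in sham and 0.918, 0.880, 1.33 and 0.791 CPM in BDL, and fell by 2.26 (SE 0.31, adjusted p = 0.00307). Traf5, an adaptor of lymphocyte receptors such as CD40 and CD27, fell by 1.36 (SE 0.25, adjusted p = 0.00946) from 7.19 ± 0.594 to 2.88 ± 0.493 CPM (SD, n = 3 and 4), a call lost without BDL replicates 2 and 3 together (adjusted p = 0.0502). Rnf31, the catalytic subunit of the linear ubiquitin ligase, fell by 1.16 (SE 0.18, adjusted p = 0.00534) from 27.5 ± 4.09 to 13.0 ± 3.37 CPM, while its partners Rbck1 and Sharpin did not pass. The lymphocyte markers that fell with Traf1 and Traf5 are given above, and their part was not tested.

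Of the 13 NF-kB kinases and transcription factors, 2 were higher and 0 lower, near the 11.8% of all tested genes called higher. Tab2 and Map3k7, which encode a subunit and the kinase of the TAK1 complex, were higher by 1.14 (SE 0.18, adjusted p = 0.00493) and by 0.80 (SE 0.18, adjusted p = 0.0174). The Map3k7 call was lost without sham replicate 2 (adjusted p = 0.0595) or 3 (0.0626) or BDL replicate 1 (0.0516) or 2 (0.0518). None of the 5 NF-kB subunit genes passed, with Rela at a log2 fold change of 0.40 and Nfkb1 at -0.04. Of the feedback inhibitors, several of which NF-kB itself induces, 1 of 11 passed. Nfkbib was higher by 0.65 (SE 0.16, adjusted p = 0.0263), a call lost without sham replicate 1 (adjusted p = 0.108) or 3 (0.0745), BDL replicate 1 (0.0856) or 2 (0.0644) and with upper quartile scaling (0.0535). Tnfaip3 (A20) and Nfkbia (IkB alpha) had log2 fold changes of 0.12 (SE 0.31) and 0.15 (SE 0.18), at means of 14.9 and 16.3 CPM and of 63.6 and 69.1 CPM in sham and BDL.

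Of 6 genes that act on the release of ligands, 2 were higher and 1, the inhibitor Timp3, was lower. Over all tested genes, 11.8% were called higher and 11.0% lower. Furin, the protease that cuts APRIL, BAFF and TWEAK, was at 95.5, 90.1 and 98.3 CPM in sham and 278, 273, 234 and 155 CPM in BDL. Every BDL library was above sham, with replicate 4 the lowest, and the log2 fold change was 1.34 (SE 0.22, adjusted p = 0.00573). Rhbdf2, the carrier that brings the TNF-releasing protease ADAM17 to the surface, was higher by 0.90 (SE 0.20, adjusted p = 0.0169), and its call was lost without sham replicate 3 (adjusted p = 0.0521) or BDL replicate 1 (0.0585) or 2 (0.0552). Adam17 itself did not pass, with 62.4 and 64.6 CPM and a log2 fold change of 0.04 (SE 0.16). Timp3, the inhibitor of ADAM17, fell by 0.82 (SE 0.18, adjusted p = 0.017), from 453 ± 101 to 241 ± 55.3 CPM (SD, n = 3 and 4), and lost its call without sham replicate 1 (adjusted p = 0.0593) or BDL replicate 1 (0.0585) or 2 (0.071).

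**Figure D5:**
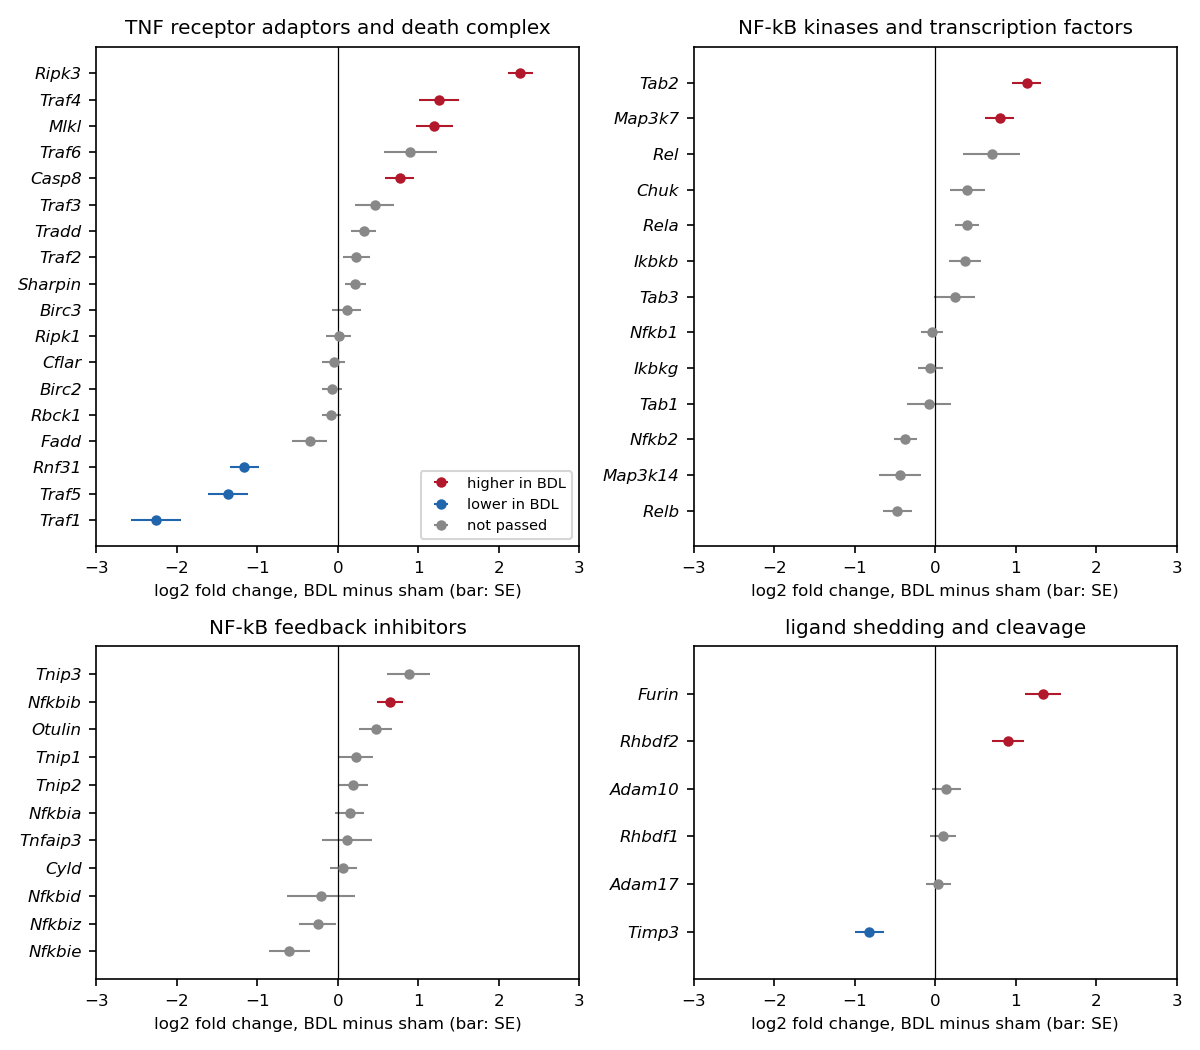
Log2 fold change, BDL minus sham, of 48 genes of TNF receptor signaling in 4 panels by role, with bars of 1 standard error and color for the edgeR call. Ripk3 at 2.27 and Traf1 at -2.26 are the farthest from 0, and most NF-kB genes and feedback inhibitors lie within 1 of it.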

How the data were processed

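RNA of whole EHBDs was copied with a SMART-Seq mRNA kit, which does not mark strand. The authors quantified reads with Salmon against GENCODE release 33 (GRCm39) and deposited estimated counts per gene as whole numbers, not normalized; no rounding was needed. Salmon divides reads shared by similar genes. Names, exon lengths and overlaps came from GENCODE release 39, which matched 55563 of 56065 identifiers (the others held 0.0335% of counts). No 2 libraries agreed within sampling noise. Replicate numbers follow the order of the samples and pair nothing.

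The 25209 genes with at least 10 counts in total entered edgeR 4.0.16 (run under R 4.3.3). Its quasi-likelihood test was run on TMM-scaled counts in a model of surgery and sex that left 4 residual degrees of freedom. P values were adjusted by Benjamini-Hochberg over all of these genes and judged at 0.05. Unless another tool is named, adjusted p values are from this test. A standard error is the size of the log2 fold change divided by the root of its F statistic. CPM use TMM-scaled totals. Counts of 0 allow up to 3 counts (0.0452 to 0.0805 CPM per library); intervals cover counting error only. The 17 alternatives were RLE and upper quartile scaling, no filter, filterByExpr, DESeq2 1.42.0, limma-voom (limma 3.58.1), no sex term, no acinar genes, each library left out, and BDL replicates 1 and 4 or 2 and 3 left out. Members, lists and alternatives were chosen with earlier results of these data known. By the naming rule, called members, the TNF, lymphotoxin, Fas and TRAIL genes and called pathway genes are given with full values, other members by level or fold change, and libraries of a few further members were added after their values were seen. The nerve marker list is not reported here.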

Additional observations from a re-analysis of the deposited data

Results flagged for a closer look

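In 6 members 1 of the 4 BDL libraries stood apart from the other 3 (Dixon's test at 95%, which flags about 1 group in 20 by chance). BDL replicate 4 was the high library for Tnf, at 2.13 CPM, and for Tnfsf18, at 2.35 CPM, and it also had the highest sum of neutrophil markers (155 CPM) and the largest share of hepatocyte markers (5.72%), whose part was not tested. BDL replicate 2 was high for Tnfrsf10b, at 8.34 CPM, and for Lta, at 0.275 CPM. BDL replicate 1 was high for Relt, at 2.77 CPM. Edar had counts in BDL replicate 3 alone, at 0.181 CPM. None of these 6 members passed the test between BDL and sham.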

How the results depend on the processing

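Of the 18 called members, 8 (Ltb, Tnfrsf12a, Tnfrsf22, Tnfrsf23, Tnfrsf26, Tnfsf10, Tnfsf13 and Tnfsf8) passed under all 17 alternatives, and 20 of the 27 others passed under none. No called member changed direction. The count of members higher, 6, ran from 5 to 7 over the fits that left out 1 library and reached 9 in DESeq2. The count lower, 12, ran from 5 (without sham replicate 1) to 11 over those fits, with 6 once sham replicate 2 or once BDL replicate 1 was left out and 7 once BDL replicate 2 was. It was 6 with BDL replicates 1 and 4 left out, 6 with BDL replicates 2 and 3 left out, and 15 in DESeq2. Except for Traf5, the lost calls listed by gene above leave out the fits without 2 BDL libraries. Among others, Ltbr, Cd27, Ngfr, Tnfrsf13b and Tnfrsf17 lost their calls with either pair left out. Tnfrsf11b lost its call without BDL replicates 2 and 3 (adjusted p = 0.0626), and Eda without BDL replicates 1 and 4 (0.0927). The pathway counts, 9 higher and 4 lower, ran from 4 (without sham replicate 3) to 10 and from 3 to 4, with 5 higher without BDL replicate 1 or 2, and the count lower was 2 without BDL replicates 2 and 3. Fewer libraries leave fewer degrees of freedom; other causes were not tested. Upper quartile scaling moved the median of all genes to -0.13.

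Changes of sign occurred only in members and pathway genes that did not pass. With upper quartile scaling the log2 fold change was -0.06 for Eda2r, -0.01 for Relt, -0.11 for Tnfrsf11a, -0.004 for Tnfrsf19, -0.05 for Tnfrsf1b, -0.09 for Tnfsf11, -0.02 for Tnfaip3 and -0.08 for Adam17. Tnfrsf11a was at -0.02 with RLE scaling, -0.01 with filterByExpr and -0.02 in DESeq2, Tnfsf11 at -0.01 in each of these, and Tnfrsf14 at 0.04 in limma-voom. Without BDL replicates 1 and 4 the values were -0.07 for Relt, -0.0002 for Tnfrsf1b, 0.09 for Tnfrsf21, 0.08 for Tnfrsf8, -0.34 for Tnfsf11, -0.13 for Tnfaip3 and -0.001 for Nfkbia. Without BDL replicates 2 and 3 they were -0.02 for Eda2r, -0.07 for Tnfrsf11a, 0.03 for Tnfrsf14 and -0.1 for Adam17. Over the fits that left out 1 library the ranges were -0.1 to 0.12 for Adam17, -0.02 to 0.11 for Eda2r, -0.06 to 0.31 for Nfkbia, -0.03 to 0.23 for Relt, -0.17 to 0.28 for Tnfaip3, -0.21 to 0.43 for Tnfrsf11a, -0.27 to 0.16 for Tnfrsf14, -0.04 to 0.28 for Tnfrsf19, -0.12 to 0.27 for Tnfrsf1b, -0.32 to 0.25 for Tnfrsf21, -2.29 to 0.85 for Tnfrsf8, -0.41 to 0.91 for Tnfsf11 and -0.04 to 0.67 for Tnfsf14. The cause was not tested.

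Precision is limited by 4 residual degrees of freedom and, for the 14 members under 1 CPM in both groups, by few counts. Acinar and hepatocyte RNA differ between libraries of 1 group. Adipocyte marker sums were lower in every BDL library than in any sham library. Opposite-strand genes (such as those of Ltb, Tnfrsf12a and Tnfrsf25) and shared exons (Tnfsf12, Tnfsf13) were not separable.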
